A study of Rattus norvegicus with 3 samples.

Results

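Wide Dor peaks that were found in the mature oligodendrocyte library alone made up 13823 of its 166805 deposited peaks. They were chosen by position, width and distance, as mature oligodendrocyte peaks on chromosomes 1 to 20 with a width of at least 600 bases and with no peak of the other libraries overlapping them or lying within 1000 bases of either border. Dor (Tp53inp2) was mapped by CUT&Tag, in which an antibody brings a transposase to the bound protein so that the DNA around it is cut and sequenced. Primary rat cells were profiled at 3 stages with the same rabbit antibody against Dor: precursor cells (OPC), oligodendrocytes labelled immature (iOL) and oligodendrocytes labelled mature (mOL). Per the labels' protocols, mixed glia were kept in medium with 15% serum and then in B104 conditioned medium for 2 days, and the precursors were shaken off them and grown in Sato medium that held 10 ng/ml PDGF-AA together with 20 ng/ml bFGF. Differentiation was in Sato medium with T3, the active thyroid hormone, at 15 nM and CNTF at 10 ng/ml, and T3 is the treatment labelled for iOL and mOL. Each stage had 1 library, so the spread between replicates is unknown, nothing was tested between stages, and every difference below is one between libraries. The labelled cell types were not checked against marker genes, since peak lists hold no expression values.

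Dor is known as a protein that moves between nucleus and cytoplasm. In the cytoplasm it takes part in autophagosome formation through binding of Atg8-family proteins, and in the nucleus it acts as a coactivator of nuclear receptors, the thyroid hormone receptor among them. Oligodendrocytes are the myelin-forming cells of the central nervous system, and thyroid hormone promotes their maturation from precursors. A CUT&Tag peak is a stretch of the genome with more fragments than its surroundings, and a wide peak is one in which that excess runs on over a longer stretch. Positions are given on the rat build rn5, counted from 1. Genes and DNA sequence at these positions were not analysed here, since a genome or annotation of rn5 was not used.

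The rule kept 8.63% of the 160142 mOL peaks on chromosomes 1 to 20. Of those peaks, 24363 were at least 600 bases wide, and 56.7% of the wide peaks became members. The wide peaks that did not comprised 8489 that overlapped an OPC or iOL peak and 2051 that lay within 1000 bases of one without overlap. Among the overlapping peaks, 3235 overlapped both other libraries, 4114 OPC only and 1140 iOL only. A further 111123 mOL peaks were alone by the same distance but narrower than 600 bases. The members covered 14.8% of all bases under mOL peaks on these chromosomes. Width and the lack of an OPC or iOL peak chose the members and are no finding.

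Medians just inside and just outside each limit of the rule were close. The 1107 members less than 20 bases above the width limit had a median fold of 7.07, and the 1124 lone mOL peaks up to 20 bases below it had 7.42. The authors' fold is the fragment pileup at the summit over the local background. Exactly 52 members were 600 bases wide. The strongest of them lay at chr7:70552937-70553536, with a fold of 7.61, at chr1:190624318-190624917, with 9.64, and at chr15:55616807-55617406, with 11.6. Just outside, the strongest lone peaks that were 1 base too narrow lay at chr10:64851084-64851682, with a fold of 13.7, at chr18:24196947-24197545, with 8.004, and at chr6:109071906-109072504, with 6.06. At the distance limit, the member at chr18:13798641-13799813 lay 1002 bases from an OPC peak and had a fold of 3.67. The member at chr19:69315361-69315974 lay 1003 bases from an OPC peak (fold 7.72) and that at chr1:163453283-163453970 lay 1003 bases from an iOL peak (fold 9.54). On the other side, wide peaks at chr4:27446750-27447505 and chr3:131740163-131740958 lay 999 bases from an iOL peak, with folds of 7.69 and 5.30, and one at chr12:42488499-42489110 lay 998 bases from an OPC peak, with a fold of 3.35.

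The members were mostly peaks of moderate strength. Strength here means the number of fragments at the summit divided by the genome background, which was 1.83 fragments per base in mOL, 1.47 in OPC and 0.540 in iOL. The median member had 22 fragments at its summit, 12.03 times the genome background, with quartiles of 16 and 29 fragments. Members ran from 10 fragments, the lowest pileup of any mOL peak, to 155. Their median fold was 6.65 (quartiles 5.24 and 8.37, range 2.24 to 23.5), and their median −log10 q was 12.4. Wide mOL peaks that overlapped an OPC or iOL peak had a median of 53 fragments, 29.0 times the background, and a median fold of 8.32. Narrow lone mOL peaks had 15 fragments, 8.20 times the background, and a median fold of 4.95. The members thus lay between these sets in strength. A strength of at least 20 was reached by 1625 members (11.8%, 95% interval 11.2 to 12.3%), beside 8.63% of all mOL peaks, 70.7% of the overlapping wide peaks and 2.43% of the narrow lone peaks. Intervals here are exact Clopper-Pearson intervals and cover counting error only.

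**Figure D1:**
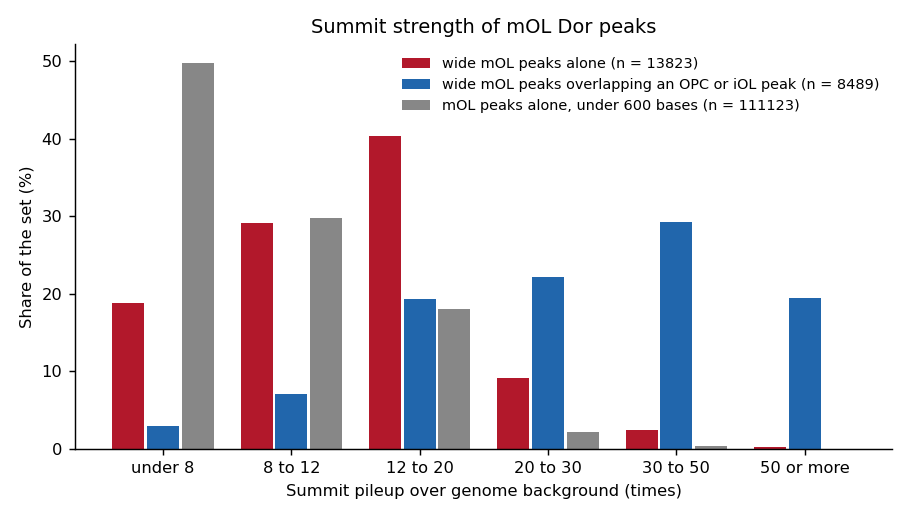
Share of each set of mOL Dor peaks (vertical axis, %) by strength, the summit pileup over the genome background (horizontal axis, times); bars show members (red), wide peaks overlapping an OPC or iOL peak (blue) and narrow lone peaks (grey). Most members lie under 20 times the background, with 40.4% at 12 to 20 times, while most overlapping wide peaks lie at 20 times or more.

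The share of wide mOL peaks that were alone fell with strength. Under 8 times the background, 2590 of 3133 wide peaks were members (82.7%, 81.3 to 84.0%), and at 8 to 12 times 4026 of 5115 (78.7%). At 12 to 20 times the share was 69.1% (5582 of 8077), and at 20 to 30 times it was 36.6% (1257 of 3430). It was 11.3% at 30 to 50 times (331 of 2922) and 2.19% at 50 times or more (37 of 1686, 1.55 to 3.01%). By width the share fell too, from 66.4% of peaks of 600 to 700 bases (4858 of 7313) to 16.9% of those of 1500 bases or more (78 of 462). Among the members themselves, strength and width were barely related, with a Spearman coefficient of -0.011 across 13823 members of 1 library, given as a description. The median strength was 12.6 at 600 to 700 bases, 11.48 at 700 to 800 and at 800 to 1000, 12.6 at 1000 to 1200, 14.2 at 1200 to 1500 and 15.6 in the 78 members of 1500 bases or more.

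**Figure D2:**
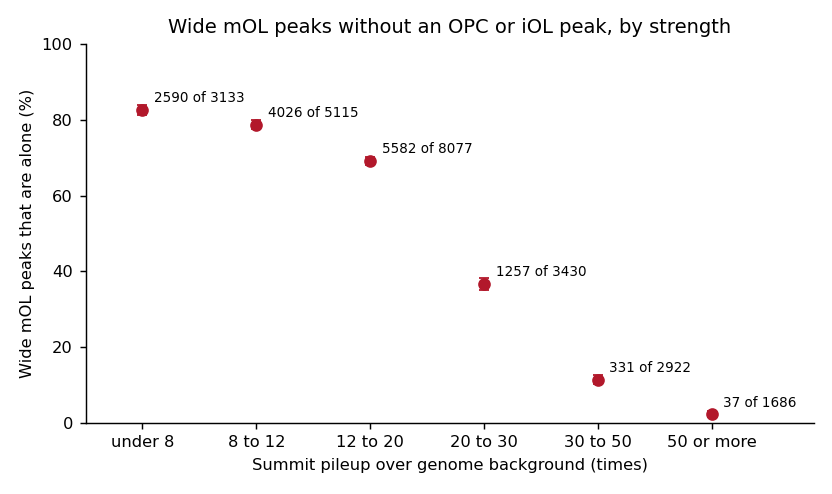
Share of wide mOL Dor peaks with no OPC or iOL peak within 1000 bases (vertical axis, %) by strength class (horizontal axis, times the genome background); points are shares, bars are 95% Clopper-Pearson intervals and labels give the counts. The share falls from 82.7% under 8 times the background to 2.19% at 50 times or more.

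The strongest members stood far above the typical one. The member with most fragments lay at chr6:38256560-38257341, with 155 fragments at its summit, 84.7 times the genome background, and a fold of 17.3. The nearest OPC peak was 14862 bases away and the nearest iOL peak 14641 bases away. At chr8:130093168-130094222 the pileup was 146 fragments, 79.8 times the background, over 1055 bases, with an iOL peak 3550 bases away. At chr9:97972140-97972801 it was 135 fragments, 73.8 times the background, and the nearest peak of another library lay 10324 bases away. These 3 strongest members lay on different chromosomes.

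Several strong members were also broad. At chr1:75791168-75792499, a member of 1332 bases had 124 fragments, 67.8 times the background. At chr7:11780842-11782048, one of 1207 bases had 120 fragments, 65.6 times the background. At chr17:80455489-80456624, one of 1136 bases had 116 fragments, 63.4 times the background. A member of 1222 bases at chr3:2466397-2467618 had 115 fragments, but its fold was 5.897 and its local background stood at 10.2 times the genome background. The others of the 10 strongest lay at chr3:163324303-163324926, with 118 fragments, and at chr3:127169013-127169637 and chr12:32432290-32433033, with 111 fragments each. Thus 3 of the 10 lay on chromosome 3, at positions far apart.

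By fold over the local background, other members led. The highest fold was 23.5, at chr14:33958024-33958634, from 73 fragments. At chr7:91268416-91269048 the fold was 20.6 from 67 fragments, and at chr4:229707545-229708203 it was 19.8 from 83 fragments. At chr2:253954871-253955942, a member of 1072 bases had a fold of 17.8 from 50 fragments, with the closest iOL peak at a distance of 171000 bases. Members at chr15:77058761-77059520 and chr17:13844198-13844801 both had a fold of 17.7 from 49 fragments over a local background no higher than that of the genome. The rest of the 10 had folds of 17.3 to 17.6, at chr20:29833626-29834297, chr8:27872557-27873184, chr6:38256560-38257341 and chr11:30609219-30610052. The 10 members of highest fold lay on 10 chromosomes, and 1 of them, on chromosome 6, was also among the 10 strongest.

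The widest members were not the strongest. The widest, at chr10:85177940-85180047, spanned 2108 bases with 59 fragments at its summit, 32.3 times the background. At chr13:56256757-56258796 a member of 2040 bases had 20 fragments, 10.9 times the background, and at chr15:43731861-43733880 one of 2020 bases had 29 fragments, 15.9 times the background. The next lay at chr11:85151784-85153767 (1984 bases, 28 fragments), chr4:194209269-194211232 (1964 bases, 47 fragments) and chr17:72460374-72462325 (1952 bases, 23 fragments). Those at chr2:262416893-262418801, chr16:73655156-73657018, chr7:115815171-115817023 and chr5:74405067-74406885 spanned 1909, 1863, 1853 and 1819 bases and had 23, 35, 65 and 52 fragments. The 10 widest members lay on 10 chromosomes, and 0 of them were among the 10 strongest or the 10 of highest fold.

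Under a strict rule, few members counted as within reach of the other libraries. With the pileup itself in place of its lower Poisson limit, the OPC share was 42.3%. If signal over background were equal and fragments were independent molecules, the OPC list would have held 1425 members with a probability of at least 0.99 (10.3%, 9.81 to 10.8%), beside 7.29% of all mOL peaks and 62.4% of the overlapping wide peaks. The iOL list, from the lowest background of the 3, would have held 64 members (0.463%, 0.357 to 0.591%), beside 1.45% of all mOL peaks. All 64 were also within reach of the OPC library. The lowest pileup that counted was 32 fragments for OPC and 65 for iOL. Among the named members, OPC coverage was enough for all 10 of highest fold and all 10 strongest, but for 2 of the 10 widest. The iOL coverage was enough for 6 of the 10 of highest fold and 9 of the 10 strongest. The other members did not meet this strict rule, and under the looser settings given next more of them did.

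The 1425 members within reach of the OPC library had a median of 44 fragments, 24.1 times the background, and a median fold of 10.6. Their median width was 758 bases, against 754 over all members, and the nearest OPC peak lay a median of 10359 bases away. The number depends on how coverage is taken. When an estimate of mitochondrial fragments was subtracted from the backgrounds it was 5.42% of members in place of 10.3%, and 0.0940% in place of 0.463% for iOL. With the pileup itself in place of its lower Poisson limit it was 42.3% for OPC and 1.92% for iOL. With the genome background alone as the level to be passed it was 18.5% and 1.95%.

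The reverse comparison gave a smaller share for OPC. Of 7012 wide mOL peaks within reach of the OPC library, 1810 had no OPC peak within 1000 bases (25.8%, 24.8 to 26.9%). Of 4067 wide OPC peaks within reach of the mOL library, 264 had no mOL peak (6.49%, 5.75 to 7.29%). Without the estimated mitochondrial fragments these shares were 17.9% of 5485 and 9.13% of 4741. Against iOL, 593 of 1940 wide mOL peaks within reach of iOL lacked an iOL peak (30.6%, 28.5 to 32.7%) and 553 of 1897 wide iOL peaks within reach of mOL lacked a mOL peak (29.2%, 27.1 to 31.3%). Without the estimated mitochondrial fragments the order turned, with 20.5% of 976 (18.0 to 23.2%) and 32.7% of 2339 (30.8 to 34.6%). The mOL list is also longer, and whether signal over background was equal in the libraries was not tested. By the rule that chose the members, the OPC list gave 1913 lone wide peaks out of 8603 (22.2%) and the iOL list 1248 out of 3450 (36.2%), against 13823 out of 24363 in mOL. At a strength of at least 20, lone wide peaks numbered 1625 of 8038 in mOL (20.2%), 132 of 4078 in OPC (3.24%) and 604 of 2311 in iOL (26.1%). The lone wide peaks of OPC had a median strength of 11.5 and those of iOL of 18.5, against 12.03 for the members, each over the background of its own library. The weakest called peak stood at 5.47 times the background in the mOL list, against 6.11 for OPC and 11.1 for iOL.

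Weak and strong members differed in the place of their summit. Counted by fragments at the summit, they were most frequent at 13 fragments (669 members), less so at 18 (521) and again more frequent at 22 (639). The summit lay within 25% of the width from a border in 56.4% of members at 10 fragments (48.8 to 63.8%) and 73.0% at 14 (69.4 to 76.3%). It did so in 37.2% at 22 (33.5 to 41.1%), 28.3% at 26 (24.4 to 32.5%) and 34.3% at 27 (30.01 to 38.9%). Below 12 times the background the share was 62.8% (4157 of 6616), at 12 to 20 times 32.0% (1787 of 5582) and at 20 times or more 29.7% (483 of 1625), beside 30.7% of all mOL peaks. In the weak members the summit lay a median of 168.5 bases from the nearer border at a median width of 765 bases, and in those of 20 times or more it lay 258.5 bases from it at a median width of 766. Weak members thus mostly had their highest point near 1 end, and strong ones nearer the middle. A summit placed evenly along the width would lie that near a border as often as not. Most of the mOL peaks behind the 30.7% are narrower than the width limit.

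Overlapping wide peaks showed the same change of shape. Below 12 times the background, 60.5% of 845 had the summit near a border, and at 20 times or more 28.5% of 6005. At 12 to 20 times the share was 41.4% of 1639, above the 32.0% of the members. Narrow lone mOL peaks did not show this change. Their share was 26.9% of 88334 below 12 times, 35.6% of 20087 at 12 to 20 times and 20.5% of 2702 at 20 times or more. The high share in weak peaks was thus seen in the sets chosen by width, and the part of the width limit in it was not tested.

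**Figure D3:**
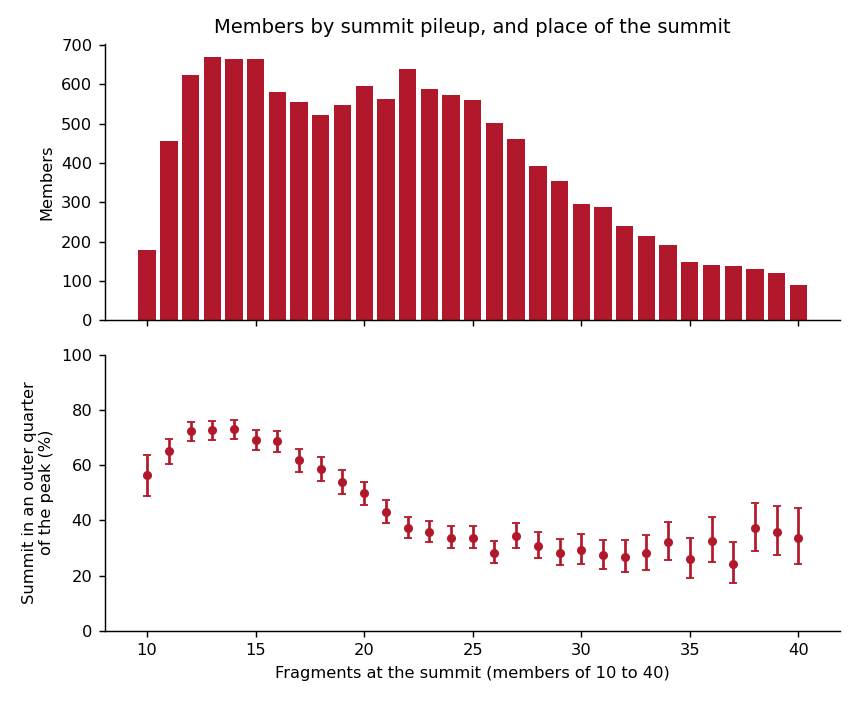
Members by the number of fragments at the summit (horizontal axis, 10 to 40 fragments); the upper panel gives the number of members and the lower panel the share with the summit within 25% of the width from a border (%, bars are 95% Clopper-Pearson intervals). The counts have a dip at 18 fragments (521 members). The share rises from 56.4% at 10 fragments to 73.0% at 14 and falls to 28.3% at 26. From 26 to 40 fragments it varies between 24.1% (at 37) and 37.2% (at 38).

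Members had a raised local background more often than mOL peaks as a whole, most of which are narrower. Among all wide mOL peaks, members included, the share was higher than in the members, at 72.6%. What entered this local background is not stated, and it may count fragments of the peak itself and of close neighbours. It therefore does not describe the surroundings apart from the peaks, and how far strong, wide or neighbouring peaks raise it was not tested. The local background of 8340 members lay above the genome background (60.3%, 59.5 to 61.2%), beside 44.8% of all mOL peaks, 93.1% of the overlapping wide peaks and 36.5% of the narrow lone peaks. The median local background was 1.13 times the genome background for members and 3.05 times for overlapping wide peaks. It rose with strength among the members, from a median equal to the genome background under 8 times to 2.21 times at 20 to 30 times and 4.80 times at 50 times or more. At 20 to 30 times, overlapping wide peaks had 2.68 times and a median fold of 7.89, against 8.79 for members. Members with another mOL peak within 5000 bases numbered 6203, and 72.6% of these had a raised local background, against 50.3% of the 7620 without one. The median strength was 12.03 in both.

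Most members lay within 20 kb of an OPC or iOL peak. Such distances depend on how many peaks each list holds, and no comparison with random placement was made. The nearest OPC peak was a median of 11792 bases away (quartiles 5594 and 23741) and the nearest iOL peak 13152 bases away (5889 and 26271). The nearest other mOL peak was a median of 5511 bases away. For narrow lone mOL peaks the median distances were 13141 bases to OPC, 14214 to iOL and 5029 to another mOL peak. Of the members, 5099 lay 1 to 5 kb from an OPC or iOL peak, 6973 at 5 to 20 kb, 1580 at 20 to 50 kb and 171 farther than 50 kb. Their median strength was 12.6, 12.03, 10.9 and 11.5 in these classes, a narrow range beside the quartiles of 8.75 and 15.9 over all members. From a member, the nearest wide mOL peak overlapping an OPC or iOL peak lay a median of 87793 bases away, and from a narrow lone peak 118091 bases.

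About as many members had a member neighbour as had none. Another member lay within 50000 bases of 6851 members (49.6%, 48.7 to 50.4%), within 10000 bases of 1646 (11.9%) and within 5000 bases of 507 (3.67%). Overlapping wide peaks, which are fewer, gave 49.8%, 11.9% and 3.55%. The members were less frequent in close pairs than in pairs farther apart. Between summits 1 to 5 kb apart there were 174 pairs of members, 43.5 per kb of distance, and between those 5 to 10 kb apart 574 pairs, 114.8 per kb. At 10 to 20 kb there were 107.5 pairs per kb. Overlapping wide peaks showed the same step, with 26.75 pairs per kb at 1 to 5 kb and 69 at 5 to 10 kb, and all mOL peaks a smaller one, with 10165 and 12989. Members with any other mOL peak within 5000 bases more often had a raised local background, as given above. That split was not made by the distance between summits of members, and a part of the local background in this step was not tested.

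**Figure D4:**
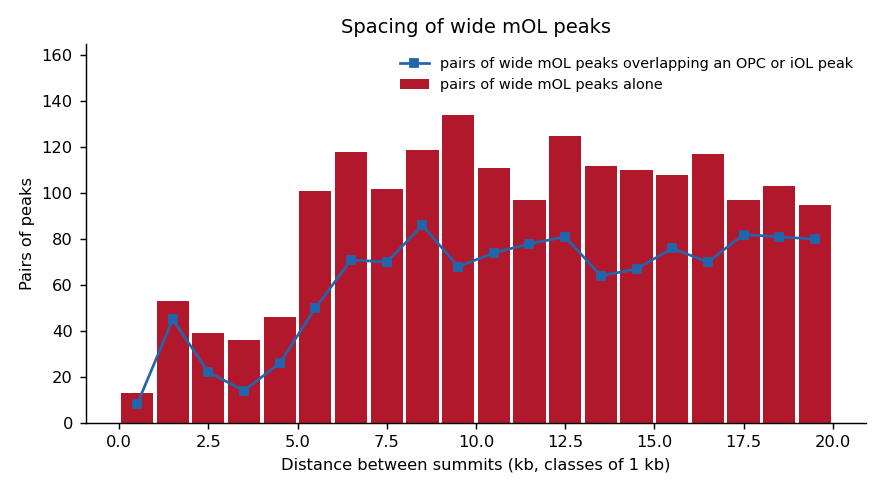
Number of pairs of peaks (vertical axis) by the distance between their summits (horizontal axis, kb, in classes of 1 kb); bars are pairs of members and the blue line pairs of wide mOL peaks overlapping an OPC or iOL peak. Both rise at about 5 kb, for members from 46 pairs at 4 to 5 kb to 101 pairs at 5 to 6 kb.

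Joined over gaps of up to 50000 bases, the members formed 9695 neighbourhoods, of which 6972 held 1 member, 2723 held more and 121 held 5 or more. The largest held 13 members over 385052 bases, at chr5:147668589-148053640, and also carried 14 OPC and 11 iOL peaks among its 50 mOL peaks. The pileups of its members ran from 12 to 43 fragments, 6.56 to 23.5 times the background with a median of 14.8, and their folds from 3.48 to 9.27. The strongest of them, at chr5:147891048-147892306, was 1259 bases wide, and the next, at chr5:147962991-147963947, had 36 fragments. The median strength of the 13 was above the 12.03 of all members. OPC coverage was enough for 0 of the 13, beside 10.3% of all members. The coverage rule also takes in the local background, and the member of 43 fragments had a fold of 4.52.

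Other rich neighbourhoods were shorter. At chr18:30842184-31037199, 9 members lay within 195016 bases, the strongest of them at 31.7 times the background. At chr7:126719517-126931750, 9 members lay within 212234 bases, and OPC coverage was enough for 2 of them. At chr4:209037789-209289680, 9 members lay within 251892 bases, with a median strength of 8.75 and a highest fold of 12.02. All 3 also held peaks of the other libraries, with 9 OPC and 5 iOL peaks on chromosome 18, 11 of each on chromosome 7 and 8 of each on chromosome 4.

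Stretches without any OPC or iOL peak mostly held a single member. Of 12260 such stretches with a member, 10862 held 1, 1256 held 2 and 142 held 3 or more. The stretch with most, which was chosen after its values were seen, ran over 192689 bases at chr11:62940353-63133041 and held 6 members among 15 mOL peaks. Their strength was 7.11 to 13.7 times the background. A shorter stretch of 44402 bases at chr4:232790711-232835112, chosen in the same way, held 5 members among 7 mOL peaks, at 8.75 to 13.1 times the background. OPC coverage was enough for 0 of the members in either stretch.

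Along the genome, members were present in 2457 of 2614 windows of 1 Mb (94.0%), with a median of 5 and at most 22 per window. The richest window was chr5:147000001-148000000, which covers most of the neighbourhood of 13 members, with 22 members, 4 overlapping wide peaks and 119 mOL peaks in all, beside 24 OPC and 28 iOL peaks. The window chr12:39000001-40000000 had 20 members and 16 overlapping wide peaks, with 63 OPC and 45 iOL peaks. The window chr12:53000001-54000000 had 19 members and 4 overlapping wide peaks. Rich windows thus included both kinds, with many or with few wide peaks shared with the other libraries. Across the windows, the number of members followed that of overlapping wide peaks with a Spearman coefficient of 0.627, that of OPC peaks with 0.648 and that of narrow lone mOL peaks with 0.692. These are descriptions over windows, which differ in how much sequence can be mapped.

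By chromosome, members were densest on chromosome 10, with 890 members or 8.04 per Mb, 1.60 times the mean of 5.03 per Mb. Chromosome 10 held 6.44% of the members (6.03 to 6.86%), beside 5.69% of all mOL peaks. Chromosome 12 followed with 393 members, 7.22 per Mb or 1.43 times the mean. The lowest densities were those of chromosome 4, at 0.735 times the mean (919 members), and chromosome 2, at 0.753 times (1081 members). On chromosome 10 overlapping wide peaks were denser still, at 1.90 times their mean, and on chromosome 4 sparser, at 0.658 times. Members stood lower than overlapping wide peaks, each against its own mean, on 9 of the 20 chromosomes. Members within reach of the OPC library stood at 2.12 times their mean on chromosome 12 and 1.55 times on chromosome 10.

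The share of wide mOL peaks that were alone was highest on chromosome 13, at 63.8% (588 of 921, 60.6 to 67.0%), and next on chromosome 15, at 61.3% (527 of 860). It was lowest on chromosome 20, at 52.4% (317 of 605, 48.3 to 56.4%), and on chromosome 10, at 52.8% (890 of 1685). Chromosome 13 had overlapping wide peaks at 0.736 times their mean density and members at 0.984 times theirs. These are the extremes of 20 chromosomes, and the intervals make no allowance for picking them. The median strength of members was 11.5 to 13.1 on every chromosome.

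**Figure D5:**
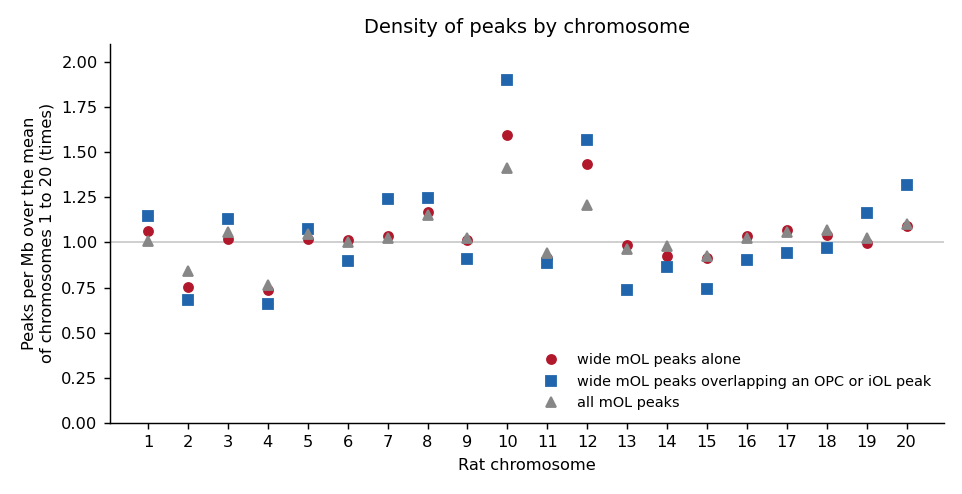
Density of peaks on rat chromosomes 1 to 20 (horizontal axis), as peaks per Mb over the mean of these chromosomes (vertical axis, times); red circles are members, blue squares wide mOL peaks overlapping an OPC or iOL peak and grey triangles all mOL peaks. Members stand highest on chromosomes 10 (1.60 times) and 12 (1.43 times) and lowest on chromosomes 4 (0.735 times) and 2 (0.753 times), between the other sets on these 4 chromosomes.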

How the data were processed

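Deposited peak lists of 1 CUT&Tag library per stage were used, sequenced as 150 bp paired reads per the labels' protocols. Per the submitters' processing notes, the build was rn5 and the tools included MACS2 2.2.7.1, Bowtie2 2.4.4 and deepTools 3.5.1, without their roles. The peak names contain "pool". Which material was pooled, control libraries and duplicate removal are not stated in the labels or files. The lists are in narrowPeak layout with no header. The authors deposited for each peak a fold (a linear ratio of summit pileup to local background), a −log10 p and −log10 q, a score equal to 10 times the −log10 p without decimals for 99.9886% of mOL peaks, and the summit.

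Pileup and local background were recovered from fold and p (pseudocount of 1 in the fold, Poisson tail), within 0.001 of the deposited −log10 p for 100% of OPC and iOL and 99.9994% of mOL peaks on chromosomes 1 to 20. The genome background is the value at which the lowest local backgrounds gather. A member counted as callable elsewhere if the lower bound of the 95% Poisson interval of its pileup, scaled with its local background by the ratio of genome backgrounds, passed p of 1e-05 with a probability of 0.99. Mitochondrial fragments were estimated from the highest local background on that genome times its covered length. Shares carry Clopper-Pearson intervals, and medians were judged against order-statistic intervals in the alternatives. On simulated peaks, pileups, distances and planted members were all recovered. The call rule was simulated only in a simpler form, without the lower Poisson limit, at the genome background and at a single fixed coverage ratio. It matched in 9 of 10 checks at the OPC background and 10 of 10 at each of the others. The simulation drew from the same Poisson model as the rule, so it checks the code and not the coverage shares. Python 3.11.15, numpy 2.4.6, pandas 2.3.3 and scipy 1.17.1 were used.

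Named regions are the 10 members of highest fold, strength and width, 3 on each side of each limit (ties by strength), and the richest neighbourhoods and windows. Members, lists and alternatives were chosen with earlier results of these data known. The genome background alone in the coverage rule, each other list left out in turn, and the counts by summit place and by stretches free of OPC and iOL peaks were added after seeing the files. The plan's gene and sequence results were not run without an rn5 genome.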

Additional observations from a re-analysis of the deposited data

Results flagged for a closer look

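Chromosome X lay outside the rule that chose the members, yet it held 463 mOL peaks that met the same limits of width and distance, or 2.995 per Mb, 0.595 times the mean of chromosomes 1 to 20. They are given here because they lie outside the peaks described above. Their median fold was 6.72 and their median strength 10.9 times the background. They were 66.6% of the 695 wide mOL peaks of that chromosome.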

How the results depend on the processing

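No paired analysis was possible because there is 1 library for every stage. Of 86 values under 13 alternatives, 45 stayed within the main value's interval, or within 1.5 times for the number of members, among them all 10 for the share on chromosome 10 (6.11 to 6.68%). A width of at least 500 bases gave a median fold of 6.85, a median strength of 12.57 and 62.3% with another member within 50000 bases. A width of at least 800 gave 5388 members, 10.95% within reach of OPC, 24.7% with a member neighbour and 62.3% with a raised local background. Without any distance (overlap alone) these 3 shares were 10.83%, 54.8% and 61.6%. A distance of 5000 bases gave 8724 members, a strength of 11.48, 34.2% with a neighbour and 55.5% with a raised background. With mOL peaks of −log10 q of at least 5, fold was 6.79, strength 12.57, and the 3 shares 11.01%, 48.1% and 61.76%. With fold of at least 5, fold was 7.404, strength 13.12, the 3 shares 13.3%, 41.7% and 62.3%, and the iOL share 0.598%. When OPC and iOL peaks needed a −log10 q of 5, 53.1% had a neighbour. Coverage shares for OPC and iOL were 5.42% and 0.0940% without mitochondrial fragments, 42.3% and 1.92% with the pileup itself, and 18.5% and 1.95% with the genome background alone. With the iOL list unused the 3 shares were 11.49%, 54.4% and 61.82%. With the OPC list unused they were 19.6%, 61.6% and 67.3%, with fold 6.86, strength 13.12 and an iOL share of 3.20%. Alternatives that admit more or fewer members change the number of neighbours by construction. In the same way a fold of at least 5 raises the median fold. The pileup itself and the genome background alone loosen the coverage rule and so raise its shares. The cause of the remaining changes was not tested.

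The weakest called peak of each list had its summit at 5.47 times the genome background in mOL, 6.11 times in OPC and 11.1 times in iOL. No library has a replicate.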
